A study of Mus musculus with 20 samples.

Results

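Trophectoderm transcription factors were followed as a set of 10 genes, Cdx2, Eomes, Elf5, Gata2, Gata3, Tfap2a, Tfap2c, Tead4, Hand1 and Ets2, out of the 30265 genes of each deposited table. They were chosen by name as transcription factors of trophectoderm and trophoblast, and each symbol matched 1 Ensembl identifier. Expression was measured in 20 mouse RNA sequencing libraries from 2 experiments on the zinc-finger factor Klf5, of the Krüppel-like family. In the first, 6 single embryos carried an siRNA against Klf5 and 10 carried a scramble siRNA. All were E4.5 preimplantation embryos from mice given as C57BL/5J in the labels, grown in KSOM with BSA, with 1 library per embryo. In the second, 2 libraries of embryonic stem cells (ESCs, which are pluripotent and come from the inner cell mass) overexpressed Klf5 and 2 overexpressed GFP. The ESC line was derived from C57BL/6J mice and kept with LIF on irradiated mouse embryonic fibroblast (MEF) feeders, which both groups shared. The vector and promoter used for overexpression are not given in the sources used here, nor is whether the ESC replicates were separate cultures, so that ESC p-values measure only the spread between these libraries, which may be technical. The embryo experiment asks which transcripts differ when Klf5 is lowered, and the ESC experiment which differ when it is raised.

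The trophectoderm is the outer epithelium of the blastocyst and gives rise to the trophoblast of the placenta. In the outer cells of the mouse embryo, TEAD4 acts with the Hippo effectors YAP1 and WWTR1 to switch on Cdx2 and Gata3, which set trophectoderm apart from the inner cell mass. TFAP2C and TFAP2A, GATA2 and GATA3 act in early trophectoderm, while EOMES, ELF5 and ETS2 act with CDX2 in maintaining trophoblast stem cells. HAND1 promotes the formation of trophoblast giant cells.

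Members that fell together in Klf5 siRNA embryos are shown by promoter sequence, since Krüppel-like factors bind CACCC and related GC-rich boxes. The stretches below are the parts of RefSeq promoter windows (GRCm38.p6, from 250 bases before to 50 after a start) that lie upstream of the start and outside exons of the member in GENCODE M21. They are printed 5′ to 3′ on the strand of the gene, with CACCC on either strand in capitals. Elf5, Tfap2a and Cdx2 had the largest fold falls among the members called lower, and Eomes is shown as a member that fell and whose window held no CACCC.
Elf5, chr2:103423818-103424061, plus strand: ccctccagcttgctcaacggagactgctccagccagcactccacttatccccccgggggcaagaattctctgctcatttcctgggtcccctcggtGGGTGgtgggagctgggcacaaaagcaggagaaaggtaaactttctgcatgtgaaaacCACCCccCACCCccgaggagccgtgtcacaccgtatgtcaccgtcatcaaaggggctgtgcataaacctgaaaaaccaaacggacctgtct
Tfap2a, chr13:40734921-40735170, minus strand: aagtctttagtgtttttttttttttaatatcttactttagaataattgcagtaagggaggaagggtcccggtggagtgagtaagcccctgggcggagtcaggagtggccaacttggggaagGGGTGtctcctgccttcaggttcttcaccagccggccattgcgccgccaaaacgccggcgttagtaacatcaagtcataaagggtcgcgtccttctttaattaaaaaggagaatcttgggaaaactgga
Cdx2, chr5:147307271-147307499, minus strand: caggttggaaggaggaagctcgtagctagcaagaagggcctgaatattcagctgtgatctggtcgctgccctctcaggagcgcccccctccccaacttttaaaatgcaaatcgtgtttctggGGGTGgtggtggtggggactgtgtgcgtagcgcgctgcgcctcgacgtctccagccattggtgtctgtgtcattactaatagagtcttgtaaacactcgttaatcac
Eomes, chr9:118477939-118478188, plus strand: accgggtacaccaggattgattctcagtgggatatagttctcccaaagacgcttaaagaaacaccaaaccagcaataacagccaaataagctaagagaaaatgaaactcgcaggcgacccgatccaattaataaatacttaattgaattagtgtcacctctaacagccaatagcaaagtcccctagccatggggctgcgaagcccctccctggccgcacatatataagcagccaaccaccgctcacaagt

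The Elf5 stretch held 3 matches to CACCC and those of Tfap2a and Cdx2 held 1 each. The window at another Elf5 start held 0. Over the whole windows, which were matched for 7 members (10 windows, because some genes have more than 1 start), CACCC was found in 7 of 10 and CCNCNCCC, a longer Krüppel-like box that can overlap CACCC, in 8 of 10. GGAATG, the core bound by TEAD factors, was found in 2 of 10. The same letters, searched on both strands, occur in 57.5%, 49.5% and 14.7% of all 32851 mouse windows of the same length. The matches describe these letters only. Tfap2c, Tead4 and Hand1 had no window in the table.

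The embryo libraries had totals of 14.7 to 24.9 (in units of 1e6 counts) and the ESC libraries of 26.8 to 37.5. By counting error alone, a library with 0 counts of a gene can have an expected count of up to about 3. By unscaled library totals that is 0.120 to 0.204 CPM (counts per 1e6 counts) in embryos and 0.0800 to 0.112 CPM in ESCs. CPM elsewhere use the scaled library size, by which 3 counts were 0.258 CPM in the embryo labelled Klf5 siRNA 1. Klf5 itself averaged 223 ± 174 CPM with Klf5 siRNA (SD, n = 6) and 469 ± 65.6 CPM with scramble siRNA (n = 10). The embryo labelled Klf5 siRNA 1 stood against its label at 543 CPM, inside the scramble range of 382 to 592 CPM, while the other 5 lay between 80.8 and 292 CPM, and member calls are given below with and without it. In ESCs Klf5 stood at 942 and 882 CPM in Klf5 libraries, against 80.5 and 70.8 CPM in GFP libraries. The mitochondrial share of counts was 5.02% ± 2.78 with Klf5 siRNA and 12.1% ± 4.84 with scramble siRNA, and this difference lies between the same groups as the member results below.

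In embryos, 6 of the 9 members that entered the fit across all genes were lower with Klf5 siRNA and 0 were higher. The 6 were Cdx2, Eomes, Elf5, Gata2, Gata3 and Tfap2a. Among all 12385 genes tested, 7.74% were called lower and 12.0% higher. All 9 members had a fitted log2 fold change below 0, as had 50.25% of all genes, and their median was -1.86 on the log2 scale, against -0.01 for all genes tested. The fit was edgeR's quasi-likelihood test, with p adjusted over all genes by the Benjamini-Hochberg method and a threshold of 0.05, and every fold change and adjusted p below comes from it unless another test is named. Hand1 had too few counts to enter. Because each library is a whole embryo, fewer trophectoderm cells and less RNA per cell cannot be told apart in these values. The count was also 6 without the embryo labelled Klf5 siRNA 1, when Gata2 missed the threshold (log2 fold change -1.83, adjusted p = 0.0594) and Tfap2c passed it (-1.06, adjusted p = 0.0429). With the mitochondrial percent of each embryo as a covariate 2 members were called lower, Cdx2 and Elf5. Without Klf5 siRNA embryos 2 and 4, which had the least Klf5, 3 members were called lower: Elf5, Eomes and Tfap2a. The share of all genes called in these last 2 settings is not given here.

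**Figure D1:**
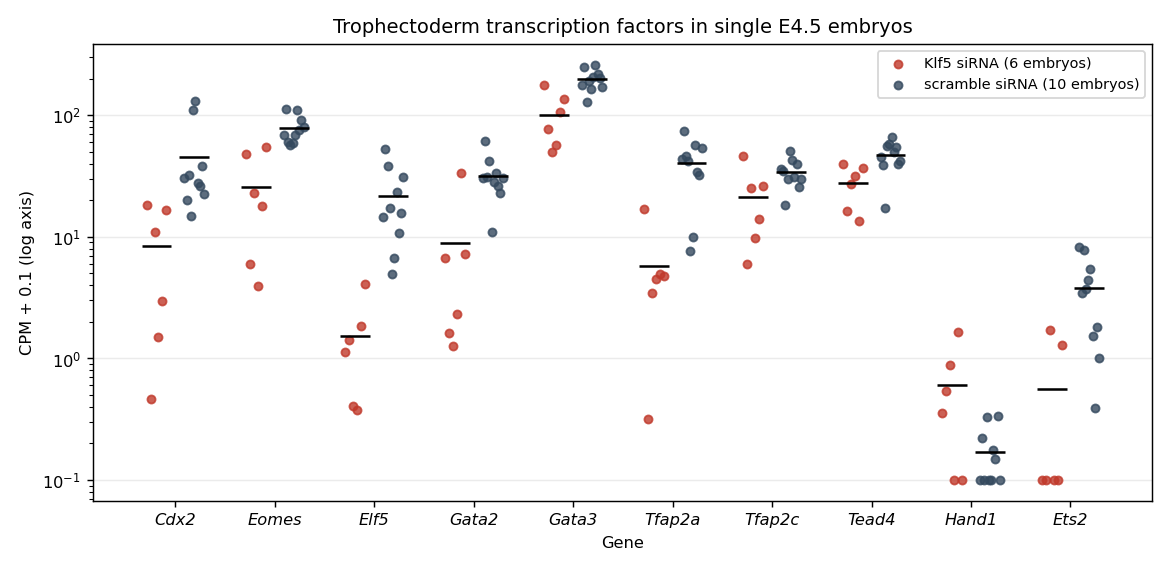
CPM plus 0.1 of each member (log axis) in 6 Klf5 siRNA embryos (red, left) and 10 scramble embryos (dark, right), each point 1 embryo and each black bar the group mean. The groups are apart for Elf5 and Eomes, while Hand1 lies at or near 0 in most embryos.

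Tead4 (chromosome 6, 128224288 to 128300823, minus strand, mm10), the factor upstream of Cdx2, ranged from 13.3 CPM through a median of 29.6 to 39.3 CPM in Klf5 siRNA embryos. In scramble embryos it ranged from 17.3 through 47.7 to 65.8 CPM. The groups overlapped, with 2 of 6 Klf5 siRNA embryos below the lowest scramble embryo and 6 of 6 below the scramble mean. The 1.70-fold lower level (log2 fold change -0.77 ± 0.30 SE) missed the threshold at adjusted p = 0.0741. DESeq2 gave an adjusted p of 0.0450 and limma voom one of 0.0677. Scramble embryo 3, at 17.3 CPM, was far below the other scramble embryos, and without it the adjusted p was 0.0305.

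Cdx2 (chromosome 5, 147300805 to 147307270, minus strand), the homeobox gene that defines the lineage, ranged from 0.364 CPM through a median of 6.87 to 18.1 CPM in Klf5 siRNA embryos. It ranged from 14.8 through 29.1 to 131 CPM in scramble embryos. Klf5 siRNA embryos 2, 4 and 5 held at most 2.89 CPM, and 4 of 6 lay under the lowest scramble embryo, whereas the embryos labelled 1 and 6 reached 18.1 and 16.7 CPM. The fitted level fell 5.41-fold (log2 fold change -2.43 ± 0.70 SE, adjusted p = 0.0196). Scramble embryos 5 and 6 carried 110 and 131 CPM of Cdx2, and the other 8 carried 14.8 to 38.3 CPM. Without those 2 embryos the log2 fold change was -1.71 and the adjusted p 0.0515.

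Gata3 (chromosome 2, 9857078 to 9890034, minus strand), a zinc-finger gene switched on beside Cdx2, ranged from 50.1 CPM through a median of 91.7 to 179 CPM in Klf5 siRNA embryos. It ranged from 129 through 197 to 261 CPM in scramble embryos. It fell 1.96-fold (log2 fold change -0.97 ± 0.27 SE, adjusted p = 0.0148), with 4 of 6 Klf5 siRNA embryos under the lowest scramble embryo. The embryo labelled Klf5 siRNA 1 was the highest of its group.

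Gata2 (chromosome 6, 88193891 to 88207032, plus strand), which acts beside Gata3 in trophoblast, ranged from 1.17 CPM through a median of 4.43 to 33.7 CPM in Klf5 siRNA embryos. It ranged from 10.8 through 30.2 to 61.5 CPM in scramble embryos. Klf5 siRNA embryo 5 alone held 33.7 CPM, above the scramble mean of 31.6 CPM, and the other 5 held at most 7.14 CPM, below every scramble embryo. Gata2 fell 3.62-fold (log2 fold change -1.86 ± 0.60 SE, adjusted p = 0.0348). Without Klf5 siRNA embryo 5 the log2 fold change was -3.10. The call was lost without any other 1 of the Klf5 siRNA embryos, or without scramble embryo 2 or 4, with a highest adjusted p of 0.0641.

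Tfap2a (chromosome 13, 40715302 to 40738376, minus strand), encoding an AP-2 factor, ranged from 0.218 CPM through a median of 4.54 to 16.8 CPM in Klf5 siRNA embryos. It ranged from 7.57 through 43.1 to 74.6 CPM in scramble embryos. It fell 7.07-fold (log2 fold change -2.82 ± 0.63 SE, adjusted p = 0.00387). The embryo labelled Klf5 siRNA 1, at 16.8 CPM, overlapped the scramble range through scramble embryos 5 and 6, which held 7.57 and 9.87 CPM. The other 8 scramble embryos held at least 32.0 CPM. With the mitochondrial percent as a covariate the log2 fold change was -1.48 (adjusted p = 0.215). Scramble embryos 5 and 6 also had the lowest mitochondrial percents of their group, 4.34% and 5.48%. Without these 2 embryos the log2 fold change of Tfap2a was -3.15 (adjusted p = 0.00106).

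Tfap2c (chromosome 2, 172549593 to 172558622, plus strand), the AP-2 gene that acts earliest in the lineage, ranged from 5.90 CPM through a median of 19.6 to 46.0 CPM in Klf5 siRNA embryos. It ranged from 18.1 through 32.7 to 50.7 CPM in scramble embryos. The embryo labelled Klf5 siRNA 1 held 46.0 CPM, higher than all but 1 of the scramble embryos. Klf5 siRNA embryos 2, 4 and 5 held 5.90, 9.63 and 14.0 CPM, below every scramble embryo. The log2 fold change of -0.68 ± 0.36 SE missed the threshold (adjusted p = 0.192), and it was -1.06 without the embryo labelled Klf5 siRNA 1.

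Elf5 (chromosome 2, 103411688 to 103450989, plus strand), an ETS-family gene that locks in trophoblast stem cell fate, ranged from 0.280 CPM through a median of 1.17 to 3.97 CPM in Klf5 siRNA embryos. It ranged from 4.83 through 16.4 to 52.4 CPM in scramble embryos, so that the groups did not overlap. Elf5 fell 14.9-fold, the largest fitted fall among the members (log2 fold change -3.89 ± 0.66 SE, adjusted p = 0.000523). The embryo labelled Klf5 siRNA 1, whose Klf5 was not low, held 1.03 CPM of Elf5. Without it the log2 fold change was -3.85 (adjusted p = 0.00156). With the mitochondrial covariate its log2 fold change was -2.94 (adjusted p = 0.0206). It was -4.22 without scramble embryos 5 and 6, which held the least Elf5 of their group (4.83 and 6.60 CPM).

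Eomes (chromosome 9, 118478212 to 118486132, plus strand), a T-box gene needed for trophoblast growth, ranged from 3.86 CPM through a median of 20.2 to 54.4 CPM in Klf5 siRNA embryos. It ranged from 56.9 through 72.8 to 113 CPM in scramble embryos. The groups lay next to each other without overlap, Klf5 siRNA embryo 6 and the embryo labelled Klf5 siRNA 1 being the nearest at 54.4 and 47.9 CPM. Eomes fell 3.09-fold (log2 fold change -1.63 ± 0.45 SE, adjusted p = 0.0146), and with the mitochondrial covariate its adjusted p was 0.0631. Elf5 and Eomes were the 2 members whose groups did not overlap with Klf5 siRNA lower, and none did so with it higher, where 1.91% and 2.91% of all genes tested were apart in these directions.

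Ets2 (chromosome 16, 95702075 to 95721051, plus strand), another ETS-family gene, had 37 counts in Klf5 siRNA embryo 3, 19 in embryo 6 and 0 in the other 4. All 10 scramble embryos had counts, from 6 to 162. Its level was at most 1.60 CPM in Klf5 siRNA embryos, against a lowest, median and highest of 0.294, 3.48 and 8.13 CPM in scramble embryos. The fitted log2 fold change of -2.94 ± 1.11 SE missed the threshold (adjusted p = 0.0695). DESeq2 gave an adjusted p of 0.0138.

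Hand1 (chromosome 11, 57828705 to 57832818, minus strand), the giant cell factor, was near the limit of counting. The 6 Klf5 siRNA embryos held 3, 6, 18, 0, 23 and 0 counts, and 5 of 10 scramble embryos held 1 to 6 counts, the rest none. In 4 Klf5 siRNA embryos the level exceeded the highest scramble embryo, 0.258 to 1.55 CPM against 0.234 CPM. The 0.258 CPM was 3 counts, in the embryo labelled Klf5 siRNA 1, which equals the largest expected count given above for a library with 0 counts. The 0.234 CPM was 6 counts, in scramble embryo 9, so the order of these embryos rests on the scaling of library size. By unscaled totals, 3 counts were 0.201 CPM in the embryo labelled Klf5 siRNA 1 and 0.132 CPM in scramble embryo 9. The 6 counts of scramble embryo 9 then stood higher. The difference in mean log2 CPM of 1.30 had an exact two-sided permutation p of 0.0396, with no adjusted value because Hand1 did not enter the fit. The exact p was 0.0688 with CPM by total counts, 0.0852 with a prior count of 0.5, and 0.011 to 0.123 with 1 embryo left out.

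**Figure D2:**
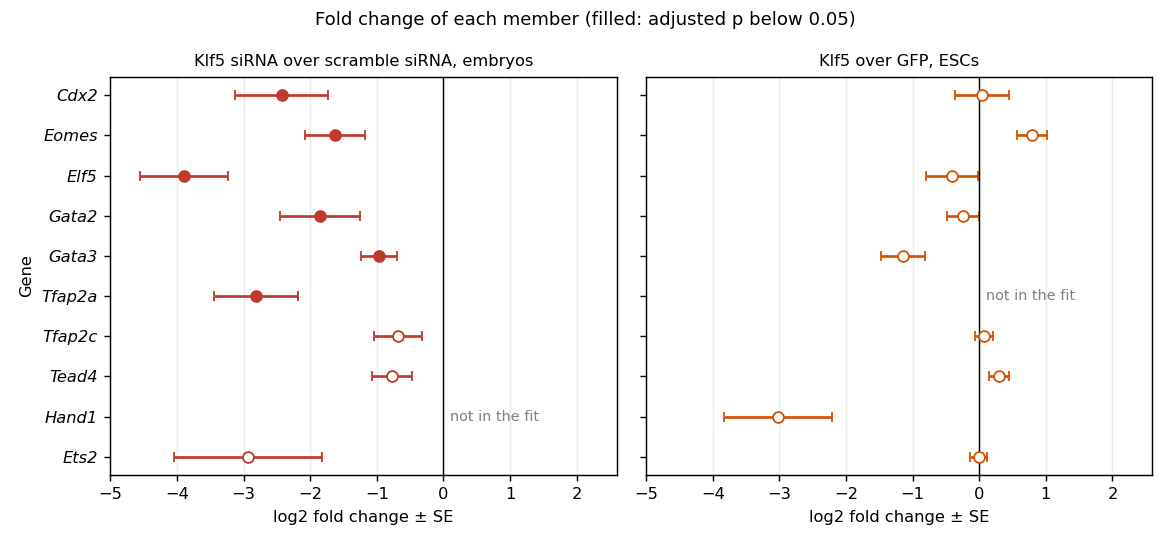
Fitted log2 fold change ± SE of each member for Klf5 siRNA over scramble siRNA in embryos (left) and Klf5 over GFP in ESCs (right), filled where the adjusted p was below 0.05. The 6 filled points, all in embryos, lie between -3.89 and -0.97.

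Each member was also compared by an exact two-sided permutation of the embryo labels on mean log2 CPM (smallest possible p = 0.000125), adjusted over all 12385 genes. By this test 7 members passed, the 6 called by the fit and Ets2. The number of all genes that passed is not given here, so this count cannot be set against a background. Eomes and Elf5 reached the smallest possible p (adjusted p = 0.00297 each). Ets2 differed by -3.45 in mean log2 CPM (exact p = 0.002, adjusted p = 0.0155). Tead4 (-0.80, adjusted p = 0.0694) and Tfap2c (-0.94, adjusted p = 0.0722) missed the threshold by the exact permutation test too. With CPM by total counts in place of scaled library sizes they passed it, at -1.21 (adjusted p = 0.0103) for Tead4 and -1.35 (adjusted p = 0.0153) for Tfap2c, so that 9 members passed.

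The embryos of the Klf5 siRNA group were not alike. Summed over the 10 members, they held 355, 109, 143, 111, 196 and 286 CPM in embryos 1 to 6, against 379 to 648 CPM in the scramble embryos. Embryos 2 and 4, which also had the least Klf5 (111 and 80.8 CPM), had the lowest sums, and the embryos labelled 1 and 6, with the most Klf5 (543 and 292 CPM), the highest. Embryos 3 and 5 went the other way, embryo 3 having more Klf5 than embryo 5 (195 and 117 CPM) and a lower sum. Gata3 was the largest part of each sum, at 179, 77.1, 50.1, 57.3, 106 and 135 CPM in embryos 1 to 6. The relation of the sums to Klf5 was not tested. The spread within the group was wide for Gata2 (coefficient of variation 143%) and narrower for Tead4 (39.0%) and Gata3 (49.2%), against 41.6%, 29.1% and 20.0% for the same genes in scramble embryos.

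**Figure D3:**
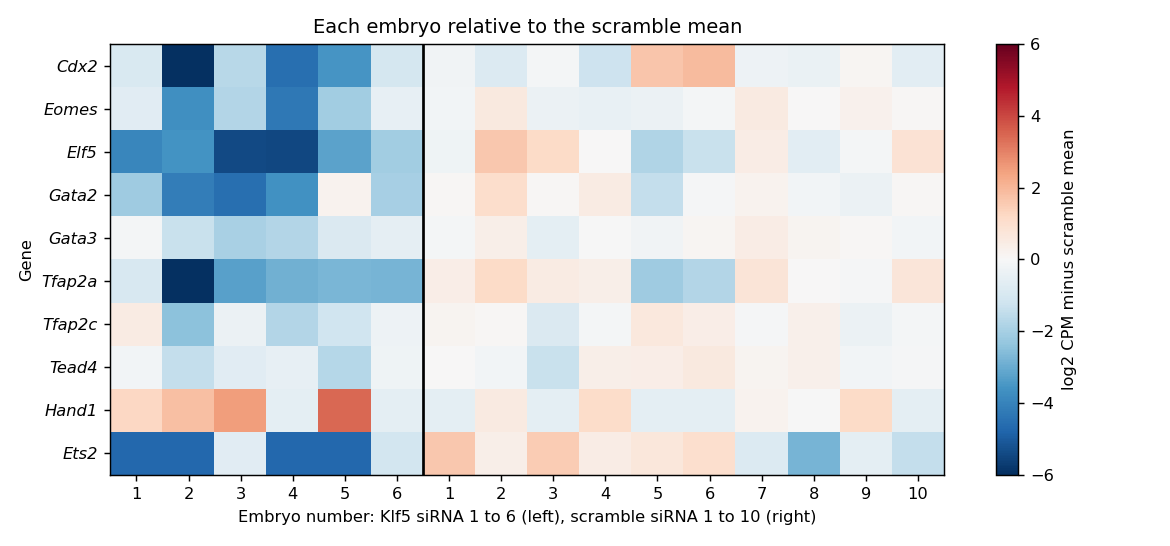
Log2 CPM of each member (rows) in each embryo (columns) minus the mean of the 10 scramble embryos, with Klf5 siRNA embryos 1 to 6 left of the black line and scramble embryos 1 to 10 right of it. Blue is lower and red higher. Klf5 siRNA embryo 2 is blue for every member except Hand1, while Gata2 in embryo 5 is near the scramble mean.

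Levels between genes were compared per length, as CPM per kilobase of the longest transcript. In Klf5 siRNA embryos the order was Gata3 (31.4 CPM per kilobase), Tead4 (8.94), Eomes (7.14), Tfap2c (7.08), Cdx2 (3.71), Gata2 (2.45), Tfap2a (1.64), Elf5 (0.442), Hand1 (0.264) and Ets2 (0.119). In scramble embryos it was Gata3 (61.4 CPM per kilobase), Eomes (22.1), Cdx2 (20.0), Tead4 (15.2), Tfap2a (11.5), Tfap2c (11.3), Gata2 (8.85), Elf5 (6.57), Ets2 (0.943) and Hand1 (0.0373). Gata3 stood above the next member in 6 of 6 Klf5 siRNA embryos and 10 of 10 scramble embryos, beyond the SDs. From Eomes to Elf5 in scramble embryos, and from Tead4 downward in Klf5 siRNA embryos, the mean ± SD ranges of neighbours in the order overlapped, although Tfap2c stood above Cdx2 in 6 of 6 Klf5 siRNA embryos. The order depends on the length used, and with mean transcript length 5 of 10 members kept their rank in scramble embryos.

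How the members vary where Klf5 was not targeted was read from the 10 scramble embryos. Over 36 pairs of the 9 members with enough counts, 18 had a Pearson r above 0 and the median was -0.00. By permutation with adjustment over the 36 pairs, 6 passed by Pearson r and 1 by Spearman rho, the pair of Elf5 and Tfap2a. That pair had r = 0.90 (permutation p = 8e-05, adjusted p = 0.00288) and rho = 0.89 (permutation p = 0.00113, adjusted p = 0.0407), and r = 0.82 without the 2 embryos farthest from the median of Elf5. Scramble embryos 5 and 6 stood apart, with the highest Cdx2 and the lowest Elf5 and Tfap2a, so pairs were also read over the other 8. There Elf5 and Tfap2a had r = 0.83 (permutation p = 0.011, adjusted p = 0.215), Cdx2 and Tfap2a had r = -0.40 (adjusted p = 0.723), and 0 of 36 pairs passed.

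**Figure D4:**
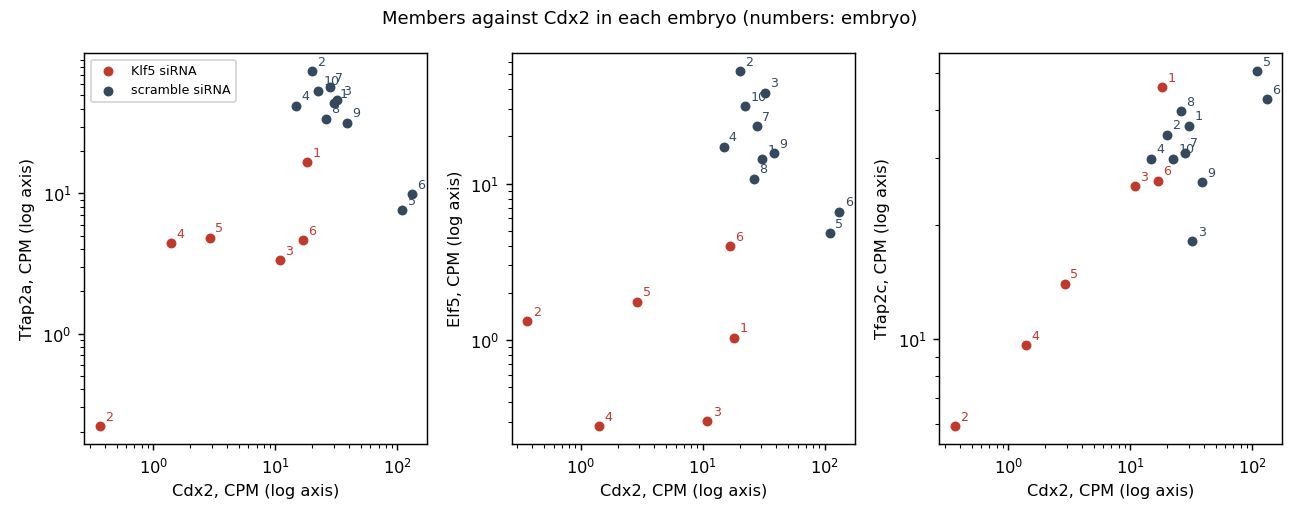
CPM of Tfap2a (left), Elf5 (middle) and Tfap2c (right) against CPM of Cdx2 (log axes) in each Klf5 siRNA embryo (red) and scramble embryo (dark), numbered by embryo. Scramble embryos 5 and 6 lie at the right, with 110 and 131 CPM of Cdx2, low Tfap2a and Elf5 but not low Tfap2c.

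The genes whose log2 CPM followed Cdx2 most closely over the 10 scramble embryos, among 7951 genes, were Ppie, Mcrs1, Arpc1b, Gipc1 and Imp4 (Pearson r 0.981 to 0.977). Over the 8 embryos without 5 and 6 they had r of 0.84 to 0.94. Elf5 was followed most closely by Gabarap, Rbm15b, Bend3, AU015836 and Nlrp12 (r 0.967 to 0.949, and 0.88 to 0.96 without embryos 5 and 6). Both sets were picked by r over embryos that include these 8, so the second r is no separate check. Of these 10 genes, Bend3 passed the test between the groups (log2 fold change -1.06, adjusted p = 0.0132), while the adjusted p of the other 9 was at least 0.160.

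Other genes of the lineage were read from fixed lists. Of 14 structural and signalling genes of trophectoderm, all of which entered the fit, 7 were lower with Klf5 siRNA and 1 was higher (median log2 fold change -1.07). Lcp1, encoding the actin-bundling protein L-plastin, held 58.2 ± 42.0 CPM in Klf5 siRNA embryos and 344 ± 173 CPM in scramble embryos (adjusted p = 0.000746). Fgfr2, the receptor for FGF4 from the inner cells, held 37.8 ± 11.0 and 112 ± 42.9 CPM in the same order (adjusted p = 0.000822), and Dsp, encoding desmoplakin, 49.9 ± 45.4 and 280 ± 128 CPM (adjusted p = 0.00182). Krt8 and Krt18, the keratins of the trophectoderm, fell 3.52-fold and 3.37-fold, Atp1b1 and Aqp3, a sodium pump subunit and a water channel, fell 1.85-fold and 2.81-fold, and the gene that rose was Plet1 (2.63-fold, adjusted p = 0.0178). Cldn4 (log2 fold change -0.55) and Krt7 (-1.20) did not pass. The 7 lower became 8 with the mitochondrial percent as a covariate and 4 without Klf5 siRNA embryos 2 and 4, and Plet1 was not called without Klf5 siRNA embryo 6 or with that covariate.

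Of 15 other trophoblast transcription factors listed, 11 entered the fit, and 2 of these were higher with Klf5 siRNA and 0 lower (median log2 fold change 0.80), where 12.0% of all genes tested were higher. Bhlhe40 (-2.31), Ovol1 (-2.16), Nr2f2 (-1.59) and Msx2 (-0.36) had log2 fold changes below 0 and did not pass. Cited1, encoding a transcriptional co-activator of trophoblast, held 260 ± 287 CPM in Klf5 siRNA embryos and 17.7 ± 18.0 CPM in scramble embryos (log2 fold change 3.88, adjusted p = 0.00111). Ascl2, a basic helix-loop-helix gene of the trophoblast, held 14.8 ± 12.4 and 1.93 ± 2.30 CPM in the same order (log2 fold change 2.93, adjusted p = 0.00469). Without Klf5 siRNA embryos 2 and 4 the call of Ascl2 was lost. Esx1 was at 0 in every embryo.

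Among 12 upstream genes of Hippo and Notch signalling, 1 was lower and 0 higher (median log2 fold change -0.52), where 7.74% of all genes tested were lower. It was Lats2, a Hippo kinase, at 5.24 ± 3.80 CPM in Klf5 siRNA embryos and 20.2 ± 12.4 CPM in scramble embryos (adjusted p = 0.0279), a call lost without scramble embryo 1 or Klf5 siRNA embryo 5 or 6 (highest adjusted p = 0.0607). The TEAD4 partners Yap1 (log2 fold change -0.38) and Wwtr1 (-0.35) did not pass. Of 18 relatives of the members in the same gene families, 11 entered the fit. Of these 1 was lower, Elf3 (2.05-fold, adjusted p = 0.0147), an epithelial ETS gene. In both lists a count of 1 lower was near the share of all genes tested. Among the relatives that missed the threshold, Tead1 had a log2 fold change of -0.80, Tead2 of 0.05 and Gata6 of -0.57.

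Markers of the other cell types of the blastocyst were measured in the same embryos. The summed level of 10 epiblast and inner cell mass markers ranged over 318 to 596 CPM in Klf5 siRNA embryos and 264 to 721 CPM in scramble embryos, with 1 marker higher (Klf2, 2.30-fold) and 1 lower (Fgf4, 4.33-fold). The call of Klf2 was lost without Klf5 siRNA embryo 5 (adjusted p = 0.115), and that of Fgf4 (adjusted p = 0.0491) when 1 embryo was left out in 11 of 16 cases. The sum of 10 primitive endoderm markers ranged over 241 to 507 CPM in Klf5 siRNA embryos and 386 to 700 CPM in scramble embryos, with 2 lower, Sox17 (11.3-fold) and Pdgfra (3.68-fold), and 0 higher. Among all genes tested, 7.74% were called lower and 12.0% higher. The part of these markers in the member values was not tested. The sum of the 14 trophectoderm genes was 867 to 3839 CPM with Klf5 siRNA and 2998 to 9256 CPM with scramble siRNA, the highest being scramble embryos 5 and 6. Fibroblast markers were near 0, at sums of 1.30 to 22.3 CPM with Klf5 siRNA and 0.103 to 8.76 CPM with scramble siRNA. Thy1, the 1 of 10 that entered the fit, was called higher (log2 fold change 4.26), and Lum was at 0 in every embryo.

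In ESCs no member was called in either direction. Of the 9 members that entered the fit (Tfap2a did not), 0 were lower and 0 higher with Klf5, where 1.11% and 1.67% of all 15968 genes tested were called lower and higher. At an unadjusted p below 0.05 there were 3 members, Gata3, Eomes and Hand1, beside 3712 of all 15968 genes tested. DESeq2, which called more genes in all than edgeR, called 1 member, Hand1. In 3 of these 9 (Elf5, Gata3 and Hand1) both Klf5 libraries lay below both GFP libraries, and in 2 (Eomes and Tead4) both lay above, against 27.4% and 28.9% of all genes tested. With 2 libraries against 2 no exact permutation test can reach the threshold, so only the fit across all genes was used.

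Hand1 stood farthest apart. It held 1.71 and 6.95 CPM in Klf5 ESCs, against 46.3 and 24.4 CPM in GFP ESCs. The 8.12-fold lower level (log2 fold change -3.02 ± 0.81 SE) had an adjusted p of 0.153 in edgeR and 0.0246 in DESeq2. Gata3 held 1.82 and 3.12 CPM in Klf5 ESCs, against 6.44 and 4.55 CPM in GFP ESCs (log2 fold change -1.15 ± 0.33 SE, adjusted p = 0.103), with an adjusted p of 0.0395 without Klf5 library 2. Eomes held 9.11 and 7.43 CPM in Klf5 ESCs, against 5.49 and 4.12 CPM in GFP ESCs (log2 fold change 0.79 ± 0.23 SE, adjusted p = 0.109). In these 3 genes the Klf5 and GFP libraries did not overlap, and none of the differences passed after adjustment in edgeR.

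**Figure D5:**
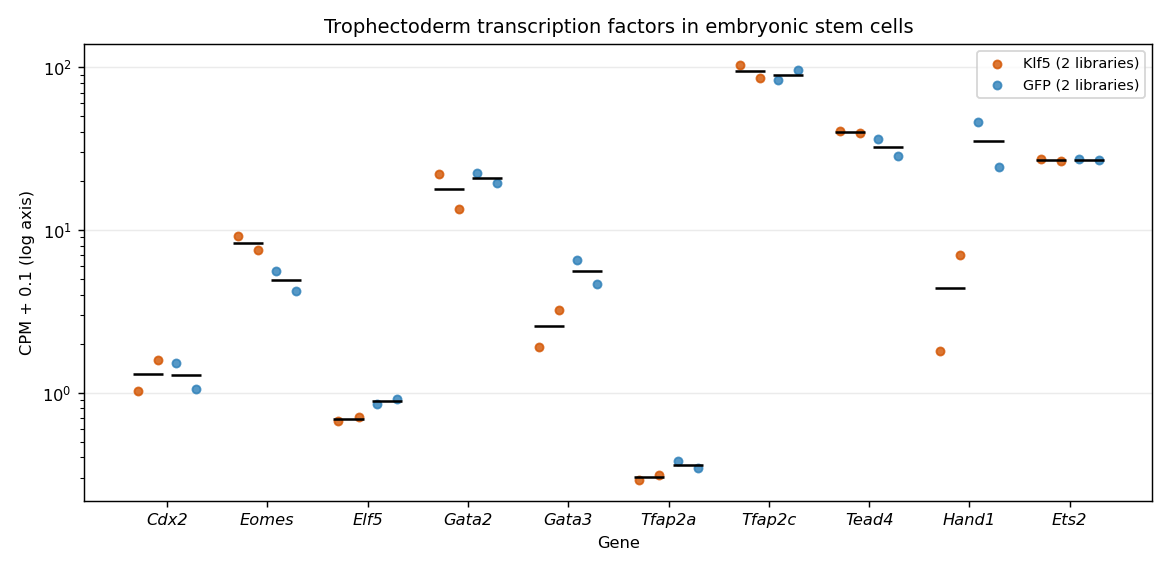
CPM plus 0.1 of each member (log axis) in 2 Klf5 ESC libraries (orange, left) and 2 GFP ESC libraries (blue, right), each point 1 library and each black bar the group mean. Hand1 and Gata3 are lower and Eomes higher in both Klf5 libraries, and Tfap2c, Tead4 and Ets2 lie between 26.4 and 104 CPM in all 4.

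The factors most abundant in ESCs had small fitted differences. Tfap2c held 104 and 85.9 CPM in Klf5 ESCs, against 84.1 and 96.4 CPM in GFP ESCs (log2 fold change 0.07 ± 0.14 SE). Tead4 held 40.5 and 39.2 CPM in Klf5 ESCs, against 36.2 and 28.6 CPM in GFP ESCs (0.30 ± 0.15 SE, adjusted p = 0.278). Ets2 held 27.2 and 26.4 CPM in Klf5 ESCs, against 27.2 and 26.7 CPM in GFP ESCs. Gata2 held 22.0 and 13.4 CPM in Klf5 ESCs, against 22.5 and 19.3 CPM in GFP ESCs. The lineage-defining genes were low in ESCs. Cdx2 held 0.925 and 1.49 CPM in Klf5 ESCs, against 1.43 and 0.948 CPM in GFP ESCs (log2 fold change 0.04 ± 0.40 SE). Elf5 averaged 0.592 and 0.784 CPM in Klf5 and GFP ESCs, and Tfap2a, with 15 and 16 counts in all, 0.202 and 0.261 CPM. Per kilobase, the order in Klf5 ESCs began with Tfap2c (31.8 CPM per kilobase), Tead4 (12.9) and Ets2 (6.89), and in GFP ESCs with Tfap2c (30.2), Hand1 (18.6) and Tead4 (10.5), while Elf5 and Tfap2a came last in both.

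The lists around the members differed in ESCs too, where 1.11% of all genes tested were called lower and 1.67% higher. Of 13 trophectoderm genes in the ESC fit 2 were lower with Klf5, among them Cldn4, encoding a tight-junction protein (2.81-fold). Krt7 was at 26.6 ± 6.58 CPM in Klf5 ESCs and 111 ± 43.1 CPM in GFP ESCs (adjusted p = 0.0536). Aqp3 and Atp1b1 of the same list had positive log2 fold changes, 0.48 (adjusted p = 0.0608) and 0.58 (adjusted p = 0.0941). None of Krt7, Aqp3 and Atp1b1 passed the threshold. The median log2 fold change of the 13 genes was -1.02. Of 15 gene family relatives 2 were higher, Cdx1 (3.57-fold), a caudal homeobox gene, and Tbx3 (2.14-fold), a T-box gene of pluripotent cells. No other trophoblast factor (14 in the fit) and no Hippo or Notch gene (12) was called, the smallest p falling to Sox15 (log2 fold change 0.57) and Notch2 (0.28). Fibroblast feeder markers summed to 1220 to 1225 CPM in Klf5 libraries and 698 to 876 CPM in GFP libraries, with Col1a2 called higher (1.72-fold), and 3 of 10 primitive endoderm markers, Sox7, Dab2 and Cubn, were called higher. Of 10 epiblast markers 0 were called (median log2 fold change 0.53), and they summed to 5372 to 5759 CPM in Klf5 libraries and 4538 to 4683 CPM in GFP libraries. The part of these markers in the ESC member values was not tested. Without GFP library 1 the fit called 1 gene in all, Klf5, so that every list call in ESCs was lost.

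Elf5, Tfap2a and Cdx2, the members with the largest falls among those called in embryos, averaged at most 1.21 CPM in Klf5 ESCs. Gata3 had a negative log2 fold change both with Klf5 siRNA in embryos (-0.97) and with Klf5 in ESCs (-1.15), whereas Eomes was lower with Klf5 siRNA (-1.63) and at 0.79 with Klf5 in ESCs, neither ESC value passing the test. Embryo and ESC libraries were made with different kits, so their levels are given side by side and not compared.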

How the data were processed

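PolyA RNA was sequenced from 16 single embryos and 4 ESC samples. Per the labels' protocols, embryo cDNA was made with the SMARTseq-V4 kit and ESC cDNA with TruSeq v2 reagents. The values are estimated counts (expected counts) per Ensembl gene, deposited by the authors without library scaling. The submitters' processing notes name kallisto 0.46 and mm10. Neither the step from transcripts to genes nor the use of strand is stated there. Of 30265 genes, 29831 matched a GENCODE M21 symbol and 434 did not. Eomes, Gata3 and Tfap2a share exon bases with genes on the opposite strand that are not in the tables, so reads there cannot be told apart without strand. Gata3 also shares 77 bases with 9230102O04Rik on its own strand, where strand would not separate the reads.

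Counts were rounded to whole numbers, filtered with filterByExpr (minimum count 10), scaled with TMM and tested with edgeR 4.0.16 (robust quasi-likelihood F test, R 4.3.3), embryos (6 against 10) and ESCs (2 against 2) apart. The SE is the log2 fold change divided by the square root of F. CPM use the scaled library size and log2 CPM a prior count of 2. The fits were tested on simulated data. No library was a repeat of another of its group (chi-square of their counts per degree of freedom at least 21.1 in ESCs and 71.3 in embryos). Exact permutation p for single members were adjusted over all genes, not over the members as first planned. Members, gene lists and tests were chosen with earlier results of these data known. All members and Klf5 are named, with up to 3 genes per other list in embryos and 2 in ESCs by smallest p, and the 5 genes nearest to Cdx2 and to Elf5 among those averaging at least 5 CPM. Other genes were named as values beside their lists after those values were seen, and 1 gene that the rule named is not reported here. Alternatives were RLE and upper quartile scaling, DESeq2 1.42.0, limma 3.58.1 voom, a gene-length offset, filters at 0 and at 5 CPM, covariates, replicate blocks and left-out libraries. Promoter sequences are from RefSeq (GRCm38.p6).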

Additional observations from a re-analysis of the deposited data

Results flagged for a closer look

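Tead4 in scramble embryo 3 lay far from the other scramble embryos. Its 17.3 CPM was the lowest of the group, and the gap of its log2 CPM to the nearest of the other 9 was 0.612 of the whole range of the group, above Dixon's 95% critical value of 0.466 for 10 samples. It was 1 of 20 groups of values examined, of which chance flags about 5%.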

How the results depend on the processing

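In embryos, 6 members were called lower, and between 5 and 7 when 1 embryo was left out (2104 to 2469 of all genes, against 2448), with 0 higher. The number was 2 with the mitochondrial percent as a covariate and 3 without Klf5 siRNA embryos 2 and 4. How many of all genes were called in these 2 settings is not given here, so a loss among the members cannot be told from a loss over all genes. DESeq2 also called Tead4 (adjusted p = 0.0450) and Ets2 (adjusted p = 0.0138), and limma voom also called Ets2 (adjusted p = 0.0231). With the length offset Gata2 was not called (adjusted p = 0.0615). No member changed sign in embryos under any alternative run. Taken singly by exact permutation, 7 members passed, 9 with CPM by total counts, and 7 to 9 with 1 embryo left out. The number of all genes passing in the same permutation settings is not given here. The replicate numbers did not pair the embryos (correlations of same-numbered embryos -0.13 to 0.11, with 1 of 6 matching its own number best). A replicate block in the 12 embryos with shared numbers gave 3 members lower (Cdx2, Elf5 and Ets2) and 902 genes called. The same 12 without a replicate block gave 3 members lower (Cdx2, Elf5 and Tfap2a) and 1423 genes called. In ESCs the 443 genes called became 1435 with DESeq2 (1 member lower), 115 with limma voom, 870 without a filter and 149 with a replicate block. The crossed pairing of ESC replicates, chosen after seeing the data, gave 1467 genes and 2 members. Leaving out 1 ESC library gave 1 to 980 genes (1 without GFP 1, 180 without GFP 2, 502 without Klf5 1, 980 without Klf5 2) and 0 to 1 members lower, the lone library being assumed to vary like the other group. Members near 0 in ESCs changed sign without being called. Ets2 was at 0.01 without a filter and at -0.02 to 0.02 without 1 library, Tfap2c at -0.07 to 0.20, Cdx2 at -0.35 to 0.35 and Gata2 at -0.63 to 0.08. The 6 member pairs that passed were 3 with total counts, 0 without scramble embryos 5 and 6, and 1 to 7 with 1 embryo left out. With mean transcript length 5 of 10 members kept their rank. The cause was not tested in any of these. Depth limits Hand1 and Ets2 in embryos and Tfap2a in ESCs. DESeq2, voom and the replicate block moved the median of all genes in embryos to 0.105, -0.118 and -0.126 on the log2 scale.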
